A study of Rattus norvegicus with 16 samples.

Results

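The genes described here are 9 markers of glia and of type II cells, the glia-like supporting cells of the carotid body: S100b, Gfap, Gpm6b, Sox10, Fabp7, Cdh19, Mbp, Nes and Sostdc1. They were taken by name from the 18166 genes that a probe of the array measures alone, and all 9 were found. Mbp has 2 such probes and each other gene has 1, and the probe with the higher mean over the 16 arrays stands for Mbp. The samples were carotid body cells of Wistar rats 9 to 11 weeks old, with the left and right organs mixed before dispersion. Cells were stained for HNK-1, a sugar epitope of neural adhesion molecules, and sorted by flow cytometry into HNK-1+ cells, which the labels call neuroblasts, and HNK-1- cells, which they call glomus cells. The rats had either breathed ambient air (normoxia) or lived in hypoxic chambers for 3 days. The 4 groups were thus normoxic glomus cells, normoxic neuroblasts, hypoxic glomus cells and hypoxic neuroblasts, with 4 arrays each. Cells were lysed after the sort, and 500 pg of total RNA per sample was converted to labelled cDNA. No gate for type II cells is named, so each sorted population can hold them, and the sort tells only whether a cell carried HNK-1.

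In the carotid body, glomus cells sense blood oxygen and release transmitters onto sensory nerve endings. Type II cells wrap groups of glomus cells with thin processes, resemble astrocytes and satellite glia, and descend from the neural crest. Some of them act as progenitors, and during sustained hypoxia such cells can leave the glial state, take up nestin and give rise to new glomus and other cells. Immature neural cells of the organ that carry HNK-1 belong to the same lineage. Because the samples are bulk RNA, fewer cells of a type and less RNA per cell cannot be told apart.

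All values are the authors' log2 expression values, and a difference of 1 on this scale is a doubling or a halving. Comparisons were made with limma over all 30429 probes, and a probe passed where the Benjamini-Hochberg adjusted p was under 0.05. Array medians ranged from 4.40 to 4.64 over the normoxic arrays and from 4.71 to 4.94 over the hypoxic arrays. The median difference of all probes was 0.17 between hypoxic and normoxic glomus cells and 0.25 between hypoxic and normoxic neuroblasts. Without the dimmer 50% of probes these medians were 0.02 and -0.03, so the shift was not shared by the brighter probes. Values after centring each array on its own median are therefore given beside the hypoxia comparisons. Centring also lowers the hypoxic values of bright probes, which as a set did not show the shift. The first hypoxic neuroblast array correlated least with the rest of its group (mean r = 0.914 across probes, against 0.949 or more for all other arrays). Th, tyrosine hydroxylase, which marks catecholamine-producing glomus cells, was between 12.56 and 12.76 in normoxic glomus cells, 12.06 and 12.49 in normoxic neuroblasts, 11.81 and 12.45 in hypoxic glomus cells, and 9.40 and 12.17 in hypoxic neuroblasts. B3gat1, an enzyme that makes the HNK-1 epitope, was between 4.54 and 5.35 in normoxic glomus cells and between 5.49 and 6.94 in normoxic neuroblasts, and these ranges do not overlap. In hypoxia its highest glomus cell value, 5.39, was above its lowest neuroblast value, 5.16. Chga, a protein of secretory granules, was between 9.02 and 9.82 and between 7.51 and 8.70 in the normoxic groups, and between 9.22 and 9.58 and between 8.27 and 9.02 in the hypoxic ones. The sorted neuroblasts thus also held RNA of glomus cell genes at high levels. The labels do not say that samples came from separate animals, so p-values measure the spread between these samples only.

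S100b encodes a calcium-binding protein of glia, and Gfap encodes the intermediate filament of astrocytes and non-myelinating glia. Gpm6b is a membrane protein of the proteolipid family, and Sox10 is the transcription factor that sets glial fate in the neural crest. Fabp7 is a fatty acid binding protein of radial and satellite glia, and Cdh19 is a cadherin of Schwann cell precursors. Mbp is a major protein of myelin, Nes (nestin) is an intermediate filament of neural progenitors, and Sostdc1 is a secreted antagonist of bone morphogenetic protein and Wnt signals. Ranked by mean over the 16 arrays, the probes for Gfap, Fabp7 and Nes lie below the median probe, at the percentiles 45.1, 41.3 and 35.8. Those for Sox10, Gpm6b, Sostdc1 and S100b lie at 71.3, 69.8, 70.3 and 83.9, and those for Cdh19 and Mbp at 89.7 and 94.2. Probes differ in their binding, so these ranks do not order the genes by RNA amount.

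The 250 bases before a start of transcription in RefSeq are shown for 3 of the genes because results below turn on them. S100b passed as higher in hypoxia in both populations and Gfap in neuroblasts. Nes correlated with S100b between arrays, at a Pearson's r that missed the threshold (adjusted p = 0.051) and a Spearman's rho that passed it (adjusted p = 0.0335). The start used is the outer end of the gene for Gfap, but lies 78 bases inside it for S100b and 873 bases inside it for Nes, and which start the cells used was not measured. The sequences are on the GRCr8 assembly, 5′ to 3′ on the gene's strand, and capitals mark a match to the core of the hypoxia response element (ACGTG or GCGTG, either strand).
S100b, chr20:12381082-12381331, strand -: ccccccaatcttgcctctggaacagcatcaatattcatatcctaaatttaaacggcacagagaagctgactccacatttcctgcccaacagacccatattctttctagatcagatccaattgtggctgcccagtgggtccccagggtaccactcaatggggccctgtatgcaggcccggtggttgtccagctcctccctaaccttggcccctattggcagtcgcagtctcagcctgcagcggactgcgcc
Gfap, chr10:88361662-88361911, strand -: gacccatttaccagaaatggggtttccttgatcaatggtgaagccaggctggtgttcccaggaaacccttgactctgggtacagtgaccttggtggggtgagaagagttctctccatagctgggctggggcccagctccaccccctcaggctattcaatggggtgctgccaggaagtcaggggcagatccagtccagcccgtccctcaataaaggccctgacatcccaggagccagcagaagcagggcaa
Nes, chr2:175736338-175736587, strand +: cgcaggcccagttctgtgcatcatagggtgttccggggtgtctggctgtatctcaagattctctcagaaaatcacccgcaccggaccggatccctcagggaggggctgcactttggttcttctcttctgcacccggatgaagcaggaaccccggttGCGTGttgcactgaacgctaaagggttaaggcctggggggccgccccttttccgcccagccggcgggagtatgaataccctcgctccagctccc
Only the window of Nes, among these 3, holds a match, 1 GCGTG that begins 94 bases before the start. The same letters occur in 36.7% of the 33469 windows of this length in the table. A search for a core of SOX factor sites (ACAAAG or ACAATG, either strand, in 25.3% of all windows) found none in these 3 windows. They have 54.8% (S100b), 57.6% (Gfap) and 60.4% (Nes) G or C, against a median of 51.2%. A match is only a run of letters, and its absence from a window says nothing about the factor. The starts listed for Cdh19 and Fabp7 lie 28179 and 2481 bases inside those genes, and their windows, with no match to either core, are not shown. Mbp has 2 starts in the table, with 2 matches to the first core at one and 3 to the second core at the other. Windows were read for 6 of the 9 genes, and Gpm6b, Sostdc1 and Sox10 are named only.

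**Figure D1:**
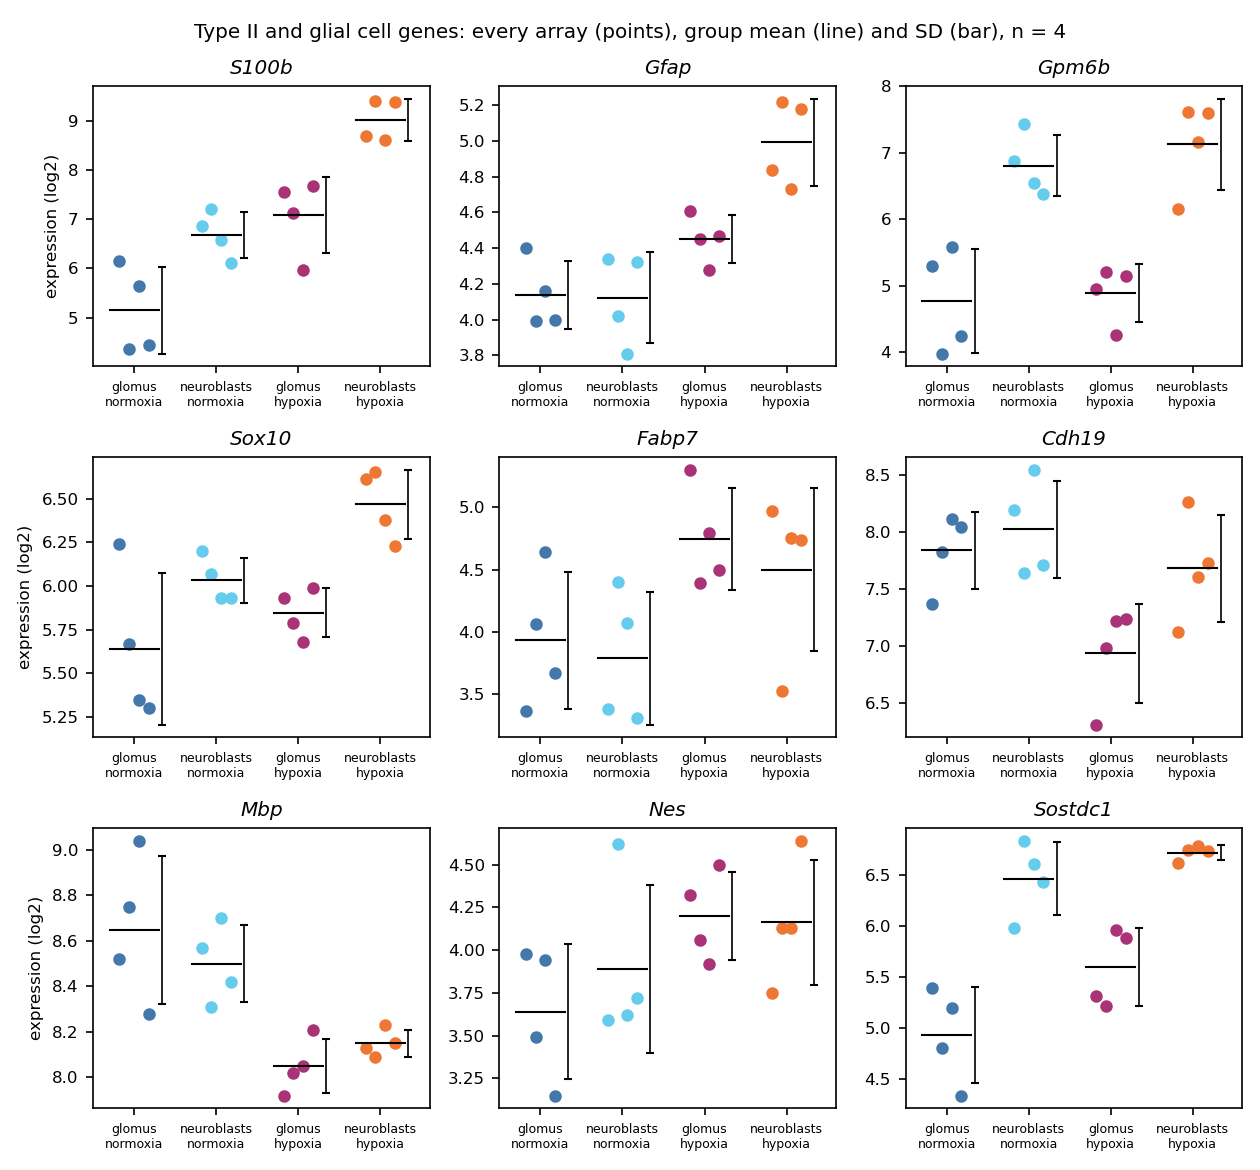
Log2 expression of the 9 genes (vertical axes, each with its own scale) in every array, by group. Points are arrays, lines are group means and bars are the SD over 4 arrays. The 4 normoxic and 4 hypoxic neuroblast points for Gpm6b and Sostdc1 lie above all glomus cell points of the same condition, and the 4 hypoxic neuroblast points for S100b, from 8.61 to 9.40, lie above all other points.

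The first question is how the populations differ in glial genes when oxygen is normal. Gpm6b and Sostdc1 were higher in normoxic neuroblasts than in normoxic glomus cells, by 4.1-fold and 2.88-fold. No member passed as lower, and Gfap, Fabp7 and Mbp gave -0.02, -0.14 and -0.15. The count of 2 of 9 stands beside 1.82% of all probes that passed in this comparison, 0.996% higher and 0.828% lower.

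Gpm6b measured 5.29, 3.98, 5.58 and 4.24 in the normoxic glomus cell arrays (replicates 1 to 4) and 6.87, 7.43, 6.55 and 6.38 in the normoxic neuroblast arrays. Every neuroblast array was above every glomus cell array. The difference was 2.03 ± 0.38 (SE, log2, adjusted p = 0.00601). In hypoxic glomus cells it measured 4.95, 5.20, 4.26 and 5.15, and in hypoxic neuroblasts 6.15, 7.61, 7.16 and 7.59. Again the groups did not overlap, although hypoxic neuroblast replicate 1 was about a unit below its neighbours. The difference in hypoxia was 2.24 ± 0.38 (adjusted p = 0.0119), a 4.72-fold change, and it was 2.56 (adjusted p = 0.00278) without that array. The Gpm6b call in hypoxia was lost, at an adjusted p of 0.0502, when only the 8 arrays compared were fitted.

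Sostdc1 measured 5.39, 4.80, 5.20 and 4.34 in normoxic glomus cells and 5.98, 6.83, 6.60 and 6.43 in normoxic neuroblasts. The lowest neuroblast value was above the highest glomus cell value. The difference was 1.53 ± 0.24 (adjusted p = 0.00139). Hypoxic glomus cells gave 5.31, 5.22, 5.96 and 5.88, and hypoxic neuroblasts gave 6.61, 6.74, 6.78 and 6.73. The hypoxic neuroblast values lay close together (SD 0.07) and above all hypoxic glomus cell values. Their difference of 1.12 ± 0.24 did not pass (adjusted p = 0.0592).

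S100b measured 6.15, 4.37, 5.64 and 4.45 in normoxic glomus cells, a spread of 0.88 (SD), and 6.85, 7.21, 6.58 and 6.10 in normoxic neuroblasts. The highest glomus cell array, replicate 1, was just above the lowest neuroblast array. The difference of 1.53 ± 0.41 (95% interval 0.67 to 2.40) did not pass (adjusted p = 0.0735). Over the alternative settings that adjusted p ran from 0.0215 to 0.265, and it was 0.0271 without normoxic glomus cell replicate 1. In hypoxic cells S100b was 7.55, 7.13, 5.97 and 7.67 in the glomus cells and 8.69, 9.40, 8.61 and 9.37 in the neuroblasts, with no overlap. That difference was 1.94 ± 0.41 (adjusted p = 0.0573).

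In hypoxia only Gpm6b of the 9 genes passed between the populations, beside 0.283% of all probes, 0.138% higher and 0.145% lower. Of the probes that passed, 48.8% were higher, and 36.8% after centring. In 5 of the genes, S100b, Gfap, Gpm6b, Sox10 and Sostdc1, all 4 hypoxic neuroblast values lay above all 4 hypoxic glomus cell values. Of all probes, 2.27% did so. In normoxia 2 of the 9 genes, Gpm6b and Sostdc1, were apart in this way, beside 3.37% of probes. The median difference of the 9 genes was 0.25 in normoxia and 0.62 in hypoxia, and that of all probes was -0.01 and 0.04.

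A comparison added after the values were seen took the mean of the population differences in normoxia and in hypoxia. Gpm6b was 2.14 ± 0.27 higher in neuroblasts (adjusted p = 0.000141, 4.4-fold), S100b 1.74 ± 0.29 higher (adjusted p = 0.00214, 3.33-fold) and Sostdc1 1.33 ± 0.17 higher (adjusted p = 0.000179, 2.51-fold). These 3 of 9 genes stand beside 2.65% of all probes, with 1.24% passing as higher. Each of the 3 passed without any single array. Sox10 had a difference of 0.51 ± 0.14 (adjusted p = 0.06), and Cdh19 and Gfap had 0.46 and 0.26.

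Markers of other cells also differed between the populations. The summed signal of 7 macrophage markers was 8.04 to 10.39 (log2) in normoxic glomus cells and 6.97 to 7.57 in normoxic neuroblasts, and in hypoxia 9.42 to 10.15 and 7.45 to 8.16. Of these markers 4 of 7 passed as lower in neuroblasts in normoxia and 5 of 7 in hypoxia. That of 4 measured endothelial markers was 8.62 to 9.22 against 5.95 to 6.87 in normoxia and 10.13 to 10.51 against 7.23 to 8.26 in hypoxia, and in glomus cells rests mostly on Cldn5, which alone of the 4 passed, as lower in neuroblasts. The other endothelial markers, Cdh5, Flt1 and Tek, gave -1.18, -1.29 and -1.35 in normoxia (adjusted p = 0.399, 0.157 and 0.281). In the added comparison 6 of 7 macrophage and 3 of 4 endothelial markers passed as lower, beside 1.41% of all probes. Most macrophage and endothelial markers were thus lower in the neuroblasts, where Gpm6b passed as higher. The summed fibroblast signal, 7.13 to 9.40 and 7.91 to 11.72 in normoxia and 7.29 to 8.75 and 7.33 to 10.07 in hypoxia, overlapped between populations. The part of these cells in the results was not tested.

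**Figure D2:**
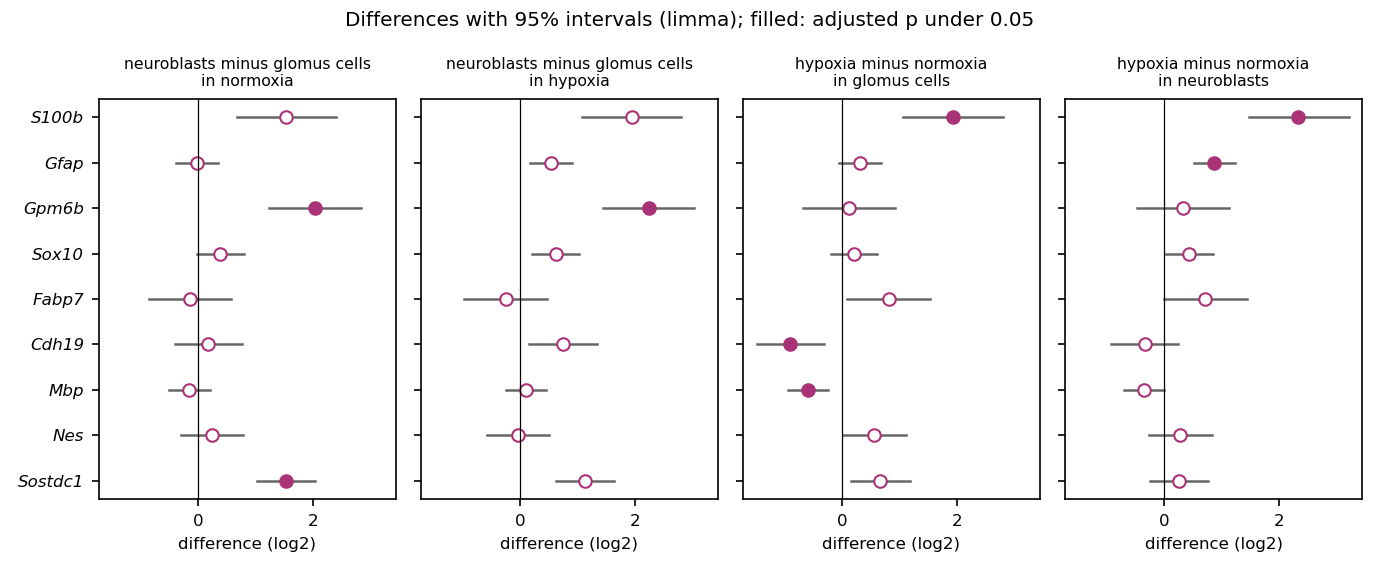
Difference between groups (horizontal axes, log2) for each gene in the 4 comparisons, with 95% intervals from limma. Filled points have an adjusted p under 0.05: Gpm6b and Sostdc1 between populations in normoxia, Gpm6b in hypoxia, S100b, Cdh19 and Mbp for hypoxia in glomus cells, and S100b and Gfap for hypoxia in neuroblasts.

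The next question is what 3 days of hypoxia changed in each population. S100b was higher after hypoxia in both, by 3.8-fold in glomus cells and 5.04-fold in neuroblasts. Gfap was higher in hypoxic neuroblasts by 1.83-fold. Cdh19 and Mbp were lower in hypoxic glomus cells, by 1.87-fold and 1.51-fold. In glomus cells 1 gene was higher and 2 were lower of 9, beside 18.9% of all probes that passed, 9.37% higher and 9.5% lower. In neuroblasts 2 were higher and none lower, beside 32.1% of all probes, 18.4% higher and 13.7% lower. After centring, the probes that passed in glomus cells were 26.6% higher where they had been 49.7%, and in neuroblasts 25% higher where they had been 57.4%, with 47% after quantile normalization. The groups did not overlap for 2 of 9 genes in glomus cells, both lower, and none was apart and higher, beside 11.3% and 15.2% of all probes. In neuroblasts 3 were apart and higher and 1 apart and lower, beside 16.3% and 11.6%. Shares of called genes near these backgrounds are not particular to glial genes, so the size of each change is given.

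For S100b, the hypoxic glomus cell values given above ran from 5.97 to 7.67 and the normoxic ones from 4.37 to 6.15, so hypoxic replicate 3 lay within the normoxic range. The rise was 1.93 ± 0.41 (adjusted p = 0.0031), and 1.71 (adjusted p = 0.0075) after centring. In neuroblasts the hypoxic values of 8.61 to 9.40 all lay above the normoxic values of 6.10 to 7.21. The rise was 2.33 ± 0.41 (adjusted p = 0.000412), and 2.05 (adjusted p = 0.00129) after centring. Without hypoxic neuroblast replicate 1 it was 2.44 (adjusted p = 0.000742). Both calls held without any single array, with adjusted p-values up to 0.0147 in glomus cells and 0.00236 in neuroblasts. Its group means rose in the order normoxic glomus cells (5.15 ± 0.88, SD, n = 4), normoxic neuroblasts (6.68 ± 0.47), hypoxic glomus cells (7.08 ± 0.78) and hypoxic neuroblasts (9.02 ± 0.43). The middle groups of that order overlap.

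Gfap measured 4.40, 3.99, 4.16 and 4.00 in normoxic glomus cells and 4.34, 4.02, 3.81 and 4.32 in normoxic neuroblasts. Hypoxic glomus cells gave 4.61, 4.45, 4.28 and 4.47, and hypoxic neuroblasts 4.84, 5.22, 4.73 and 5.18. The hypoxic neuroblast arrays were above the other 12 arrays, which all lay at or under 4.61. The rise in neuroblasts was 0.87 ± 0.17 (adjusted p = 0.00114). It was 0.59 (adjusted p = 0.0171) after centring and 0.58 (adjusted p = 0.0216) after quantile normalization. The glomus cell difference was 0.31 ± 0.17 (adjusted p = 0.224). The Gfap probe lies below the median probe in signal, and the change is therefore one among dim values.

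Cdh19 measured 7.37, 7.83, 8.12 and 8.05 in normoxic glomus cells and 6.31, 6.98, 7.22 and 7.24 in hypoxic glomus cells. The hypoxic values all lay below the normoxic ones, with hypoxic replicate 1 the lowest. The fall was -0.90 ± 0.28 (adjusted p = 0.0288), and -1.12 (adjusted p = 0.0168) after centring. It did not pass after quantile normalization, at -0.73 (adjusted p = 0.065). The call was also lost without normoxic glomus cell replicate 2, 3 or 4 or hypoxic glomus cell replicate 1 or 2, with adjusted p-values up to 0.105, and held in the other 11 of 16 such fits. In neuroblasts Cdh19 measured 8.20, 7.64, 8.55 and 7.71 in normoxia and 7.12, 8.27, 7.61 and 7.73 in hypoxia, which overlap (-0.34, adjusted p = 0.333).

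Mbp measured 8.52, 8.75, 9.04 and 8.28 in normoxic glomus cells and 7.92, 8.02, 8.05 and 8.21 in hypoxic glomus cells, with no overlap. The fall was -0.60 ± 0.17 (adjusted p = 0.0174), and -0.81 (adjusted p = 0.00427) after centring. It did not pass after quantile normalization (-0.46, adjusted p = 0.0947), nor without normoxic glomus cell replicate 3 or hypoxic glomus cell replicate 1 (adjusted p up to 0.0745), and passed in the other 14 of 16 fits without 1 array. The other Mbp probe disagreed, with means of 4.84 in normoxic and 5.04 in hypoxic glomus cells and a difference of 0.20 (adjusted p = 0.515). The mean of the probes gave -0.20 (adjusted p = 0.419). In neuroblasts the stronger probe measured 8.57, 8.31, 8.70 and 8.42 in normoxia and 8.13, 8.09, 8.23 and 8.15 in hypoxia. Those groups did not overlap, but the difference of -0.35 ± 0.17 did not pass (adjusted p = 0.11). After centring it did, at -0.63 (adjusted p = 0.015), whereas the other probe gave 0.14 (adjusted p = 0.587) before centring.

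Sox10 measured 6.24, 5.67, 5.35 and 5.30 in normoxic glomus cells, 6.20, 6.07, 5.93 and 5.93 in normoxic neuroblasts, 5.93, 5.79, 5.68 and 5.99 in hypoxic glomus cells, and 6.61, 6.65, 6.38 and 6.23 in hypoxic neuroblasts. Its hypoxic neuroblast values lay above those of hypoxic glomus cells and of normoxic neuroblasts. Neither the population difference in hypoxia (0.62 ± 0.19, adjusted p = 0.248) nor the hypoxia difference in neuroblasts (0.43 ± 0.19, adjusted p = 0.0899) passed. Over arrays, Sox10 followed the array median (r = 0.76 and rho = 0.75 on deviations from group means, n = 16). None of the other 8 genes did so beyond r = 0.20 in that direction, and Cdh19 went the other way (r = -0.55 and rho = -0.46).

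Fabp7 ranged from 3.37 to 4.64 in normoxic glomus cells, 3.31 to 4.40 in normoxic neuroblasts, 4.39 to 5.30 in hypoxic glomus cells and 3.53 to 4.97 in hypoxic neuroblasts. Its hypoxia differences were 0.81 ± 0.34 in glomus cells (adjusted p = 0.112) and 0.71 in neuroblasts (adjusted p = 0.115). Nes ranged from 3.15 to 3.98, 3.59 to 4.62, 3.92 to 4.50 and 3.75 to 4.64 in the same groups, and the groups overlap throughout. Its hypoxia differences were 0.56 ± 0.26 in glomus cells (adjusted p = 0.146) and 0.27 in neuroblasts (adjusted p = 0.404), which became -0.01 after centring. Sostdc1 gave 0.66 ± 0.24 in glomus cells (adjusted p = 0.0648) and 0.25 in neuroblasts (adjusted p = 0.406), the last turning to -0.03 after centring. Gpm6b gave 0.12 in glomus cells (adjusted p = 0.852), which turned to -0.10 after centring, and 0.32 in neuroblasts (adjusted p = 0.51). These 4 genes thus have hypoxia values that did not pass and that in part change sign with the scaling.

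Some markers of other cells also differed with hypoxia. In glomus cells 2 of 7 macrophage markers, Aif1 and Tyrobp, passed as higher, by 2.18 ± 0.37 and 1.89 ± 0.30, and Csf1r gave -0.38 ± 0.43. The macrophage sums of hypoxic and normoxic glomus cells overlapped. In neuroblasts 0 of 7 passed. Of 4 endothelial markers, Cldn5 alone passed, higher by 1.77 ± 0.34 in glomus cells and 2.60 ± 0.34 in neuroblasts, while Flt1 and Tek gave 0.27 and -0.60 in glomus cells. Markers of the sorted cells differed too. Of 5 neuroblast markers, 4 passed as lower and 0 as higher with hypoxia in neuroblasts, where 13.7% and 18.4% of all probes did. Their median difference was -1.06. Between populations 3 of the 5 passed as higher in neuroblasts in normoxia and 0 in hypoxia, beside 0.996% and 0.138% of all probes. Of 6 glomus cell markers, 2 passed as lower with hypoxia in glomus cells and 0 as higher, and 3 and 1 in neuroblasts. S100b was higher in both populations. The part of these cells in the hypoxia results was not tested.

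Whether hypoxia changed the 9 genes by unequal amounts in the populations was tested as an interaction. None passed in limma, beside 0.0789% of all probes, and 1 had an unadjusted p under 0.05. That gene was Gfap, whose difference was 0.55 ± 0.24 larger in neuroblasts (adjusted p = 0.733). For S100b the rise was 0.41 ± 0.58 larger in neuroblasts, with a 95% interval from -0.82 to 1.63. Cdh19 gave 0.56 ± 0.39 and Sostdc1 -0.40 ± 0.34. The changes of S100b, Gfap, Cdh19 and Mbp were therefore not shown to differ between the populations. The population and hypoxia comparisons share their groups, and their values are set side by side only.

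To place the 9 genes, 8 lists of related genes with 83 measured members were counted in the same fit. They cover myelin and Schwann cells, glial and neural crest transcription factors, Schwann cell precursors and satellite glia, astrocytes, intermediate filaments, purinergic signalling of type II cells, secreted antagonists of bone morphogenetic proteins and Wnts, and the proteolipid family. Between populations in normoxia, 3 of the 83 (3.61%) were higher in neuroblasts and 2 (2.41%) lower, beside 0.996% and 0.828% of all probes. Scn7a, a sodium channel of glia, was higher by 2.85 ± 0.63 (adjusted p = 0.0238), with glomus cell values of 4.28 to 6.90 and neuroblast values of 7.66 to 9.44. Nefl, the light neurofilament, and Entpd3, an enzyme that breaks down extracellular ATP, were higher by 1.63 ± 0.26 (adjusted p = 0.00161) and 1.55 ± 0.20 (adjusted p = 0.00022). Ngfr, the p75 neurotrophin receptor of Schwann cells and neural crest, was lower by -1.23 ± 0.23 (adjusted p = 0.00664). Sparcl1, a matrix protein that astrocytes secrete, was lower by -0.85 ± 0.20 (adjusted p = 0.0391), a call lost after centring (adjusted p = 0.0963). In hypoxia 1 of the 83 passed (1.2%, beside 0.138% of all probes higher), Ndrg2, an astrocyte gene, at 1.27 ± 0.19 (adjusted p = 0.00603). The proteolipid Gpm6a, a relative of Gpm6b, gave 0.48 ± 0.43 and 1.04 ± 0.43 and did not pass in either condition.

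In the comparison added after the values were seen, 12 of the 83 (14.5%) were higher in neuroblasts and 3 (3.61%) lower over both conditions, beside 1.24% and 1.41% of all probes. Among Schwann precursor and satellite glia genes, Scn7a was higher by 2.66 ± 0.45 (adjusted p = 0.00212), Egfl8 by 0.60 ± 0.13 (adjusted p = 0.0141) and Erbb3, the neuregulin receptor of Schwann cell precursors, by 1.01 ± 0.22 (adjusted p = 0.0187). Ngfr was lower by -0.93 ± 0.16 (adjusted p = 0.0032). Ptprz1, a receptor phosphatase of glia and progenitors, gave 0.85 ± 0.20 (adjusted p = 0.0263), and Apoe, a lipid carrier of glia and macrophages, gave -0.85 ± 0.22 (adjusted p = 0.0486). The Erbb3 and Ptprz1 calls were lost after quantile normalization (adjusted p = 0.0606 and 0.0603), and that of Apoe after centring and after quantile normalization (adjusted p = 0.0546 and 0.0629).

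Of the other lists, the astrocyte gene Ndrg2 was higher by 0.91 ± 0.14 and Sparcl1 lower by -0.74 ± 0.14. Sox2, a transcription factor of progenitors, was higher by 0.71 ± 0.15 (adjusted p = 0.0159). The neurofilaments Nefl and Nefm were higher by 1.24 ± 0.18 and 0.83 ± 0.18, the latter not after quantile normalization (adjusted p = 0.0543). Entpd3 and Entpd2, which break down extracellular ATP, were higher by 0.90 ± 0.14 and 0.92 ± 0.19. Fst, which binds activins, and Sfrp1, a Wnt antagonist, were higher by 1.02 ± 0.17 and 0.92 ± 0.16. Some genes of these lists thus passed in each direction, and Nefl and Nefm also serve as markers of peripheral neurons. Of 13 measured myelin and Schwann cell genes, 0 passed over both conditions. Of 9 astrocyte genes, 1 passed as higher and 1 as lower. The median difference of those 9 was 0.04, beside 0.02 for all probes.

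With hypoxia, 9 of the 83 (10.8%) were higher and 4 (4.82%) lower in glomus cells, beside 9.37% and 9.5% of all probes. In neuroblasts 22 (26.5%) were higher and 5 (6.02%) lower, beside 18.4% and 13.7%. These shares are not read as particular to glial genes. They turn with the scaling: after centring the counts were 3 higher and 5 lower in glomus cells and 4 higher and 10 lower in neuroblasts, and after quantile normalization 5 and 4, and 10 and 6. Without hypoxic neuroblast replicate 1 the neuroblast counts were 19 higher and 5 lower.

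In glomus cells, Nbl1, a secreted antagonist of bone morphogenetic proteins, rose by 1.82 ± 0.25 (adjusted p = 9.5e-05), Sox8, a relative of Sox10, by 0.77 ± 0.16 (adjusted p = 0.00244) and Egfl8 by 0.74 ± 0.18 (adjusted p = 0.00762). Dkk3 fell by -1.55 ± 0.26 (adjusted p = 0.00057), Ngfr by -1.47 ± 0.23 (adjusted p = 0.000293), Ndrg2 by -1.10 ± 0.19 (adjusted p = 0.000758) and Ncam1, a neural adhesion molecule, by -0.66 ± 0.22 (adjusted p = 0.0487). These 7 passed in the same direction after centring too. The other 6 that passed did not after centring: Egr2, the transcription factor of myelinating Schwann cells (1.79 ± 0.54), Vim, the intermediate filament vimentin (1.25 ± 0.38), Sfrp1 (0.77 ± 0.23), Olig2 (0.63 ± 0.20), Des (0.57 ± 0.15) and Nt5e (0.47 ± 0.16). Of these 6, Egr2 and Vim passed as higher after quantile normalization (adjusted p = 0.0215 and 0.046), and the others did not.

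In neuroblasts, Vim rose by 1.46 ± 0.38 (adjusted p = 0.00736), Apoe by 1.33 ± 0.31 (adjusted p = 0.00412), Nbl1 by 1.51 ± 0.25 (adjusted p = 0.000232) and Des by 0.67 ± 0.15 (adjusted p = 0.00258). Dkk3, Entpd3, Nefl, Ngfr and Ncam1 fell, by -1.71, -1.11, -0.84, -0.88 and -0.88. All 9 passed in the same direction after centring. Genes that passed only before centring were the astrocyte channels Aqp4 (0.79 ± 0.22) and Kcnj10 (0.93 ± 0.30) with Mlc1 (0.66 ± 0.22), and the transcription factors Sox2 (0.77 ± 0.22), Olig2 (0.76 ± 0.20) and Tfap2a (0.70 ± 0.25). The same holds for the myelin genes Mag (0.78 ± 0.28) and Pllp (0.51 ± 0.18), and for Nefh (0.78 ± 0.25), Gap43 (0.49 ± 0.15), Nt5e (0.46 ± 0.16), Sfrp1 (0.93 ± 0.23) and Grem1 (0.75 ± 0.19). Of the genes lost after centring, Nefh, Gap43 and Sfrp1 passed as higher after quantile normalization (adjusted p = 0.00489, 0.01 and 0.0051). The others named did not. P2ry2, the ATP receptor of type II cells, and Panx1, the channel through which they release ATP, did not pass in any of the comparisons of populations or of oxygen. Their hypoxia values in neuroblasts were 0.40 ± 0.20 and -0.15 ± 0.16.

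**Figure D3:**
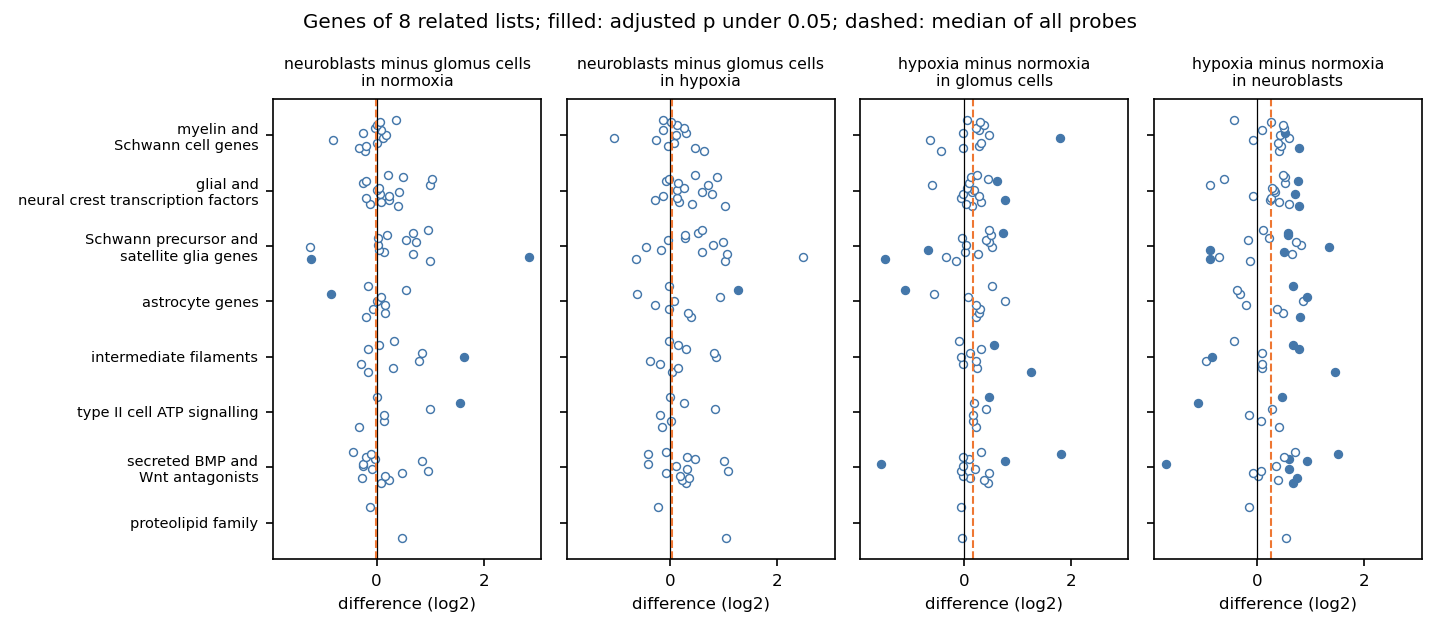
Difference (horizontal axes, log2) for every measured gene of the 8 related lists (rows) in the 4 comparisons. Filled points have an adjusted p under 0.05, and the dashed line is the median of all probes, 0.25 for hypoxia in neuroblasts, where 22 of 83 genes passed as higher and 5 as lower before centring.

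The 9 genes did not vary together as a block between arrays of the same group. Each gene's group mean was subtracted, and the 36 pairs of genes were correlated over the 16 arrays, with permutation within groups. Of the 36, 24 correlations were above 0 and 12 below, from -0.50 (Gfap with Fabp7) to 0.84 (S100b with Gpm6b), with a median of 0.18. One pair passed after Benjamini-Hochberg adjustment over the 36: S100b with Gpm6b, at Pearson's r = 0.84 (permutation p = 0.00083, adjusted p = 0.0299) and Spearman's rho = 0.84 (adjusted p = 0.0335). It was 0.83 without the 2 arrays farthest in S100b. Within normoxia r was 0.93 (exact permutation p = 0.026, n = 8) and within hypoxia 0.72 (exact permutation p = 0.033, n = 8). Leaving out 1 array at a time moved r only between 0.80 and 0.90, but no pair passed the adjustment in 6 of those 16 fits.

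Nes varied with the same 2 genes, at r = 0.78 with Gpm6b (permutation p = 0.00312, adjusted p = 0.051; rho = 0.79, adjusted p = 0.0335) and r = 0.73 with S100b (permutation p = 0.00425, adjusted p = 0.051; rho = 0.77, adjusted p = 0.0335). These missed the threshold on r and passed it on rho. After quantile normalization r was 0.77 with Gpm6b and 0.57 with S100b. In normoxic glomus cells the arrays with high S100b, replicates 1 and 3, were also those with high Gpm6b (5.29 and 5.58) and high Nes (3.98 and 3.94). In normoxic neuroblasts, replicate 2 was highest for S100b, Gpm6b and Nes, at 7.21, 7.43 and 4.62. In hypoxic glomus cells replicate 3 was lowest for all 3, at 5.97, 4.26 and 3.92. In these groups the summed fibroblast signal followed the same arrays. It was 9.40 and 8.79 in normoxic glomus cell replicates 1 and 3 against 7.13 and 7.49, and 11.72 in normoxic neuroblast replicate 2 against 7.91, 8.52 and 8.04. In hypoxic glomus cells it was lowest, at 7.29, in replicate 3. Hypoxic neuroblasts followed it only in part, with fibroblast sums of 9.09, 8.78, 7.33 and 10.07 (replicates 1 to 4). There replicate 1 was lowest for Gpm6b and Nes, at 6.15 and 3.75, and replicate 3 was lowest for S100b, at 8.61. S100b with Gfap gave r = 0.57 (permutation p = 0.0214, adjusted p = 0.193). Sostdc1, which differed between populations as Gpm6b did, gave 0.34 with Gpm6b and 0.30 with S100b. With Nes it gave 0.60 (permutation p = 0.0347, adjusted p = 0.25), and 0.35 after quantile normalization. Within normoxia Sostdc1 gave 0.66 with Gpm6b, 0.69 with S100b and 0.83 with Nes (n = 8). Within hypoxia these were -0.18, -0.36 and 0.09 (n = 8). Cdh19 and Mbp, the genes that fell in glomus cells, gave 0.41 with each other.

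**Figure D4:**
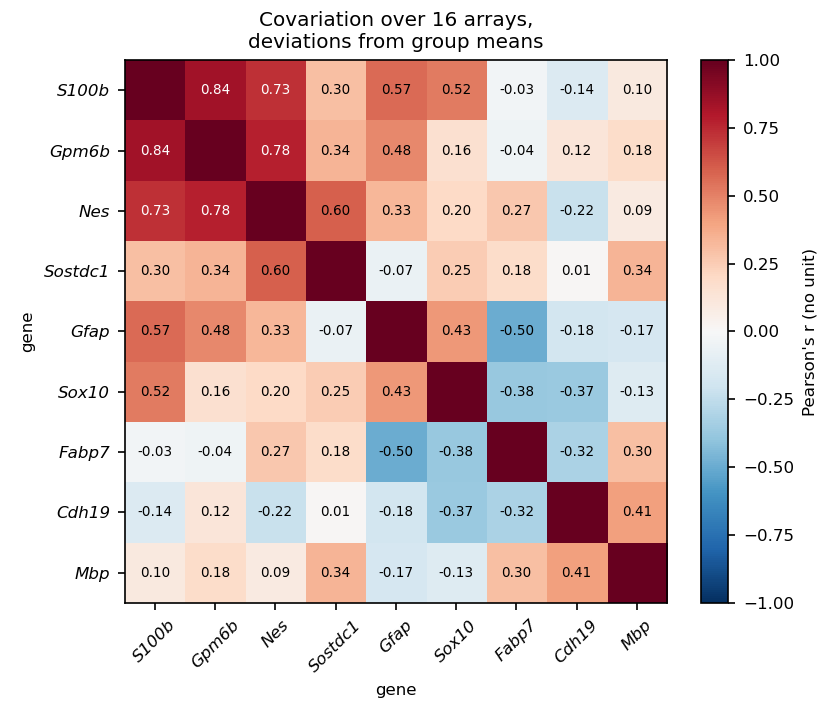
Pearson's r between each pair of genes over 16 arrays, computed on deviations from group means. S100b, Gpm6b and Nes form the darkest corner, with r of 0.84, 0.78 and 0.73, and Gfap with Fabp7 is the lowest at -0.50.

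**Figure D5:**
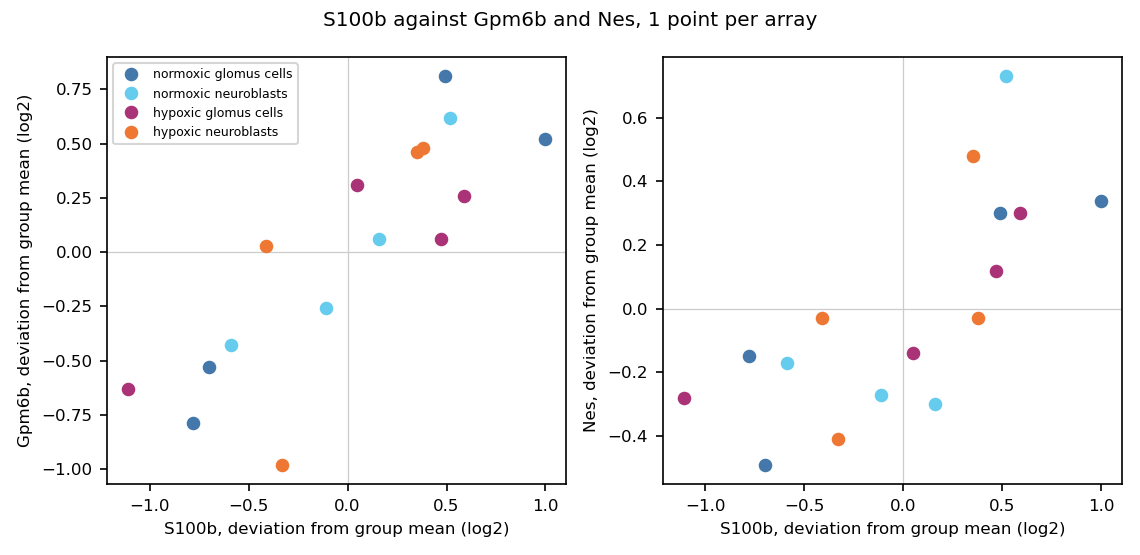
Deviation of S100b from its group mean (horizontal axes, log2) against that of Gpm6b (left) and of Nes (right), 1 point per array, coloured by group. Arrays of all 4 groups lie along the diagonal, and hypoxic neuroblast replicate 1 is the lowest point for Gpm6b, at -0.98.

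The mean log2 value of each other cell type's markers was also set against the genes over the same arrays. Gpm6b correlated with the endothelial mean at r = 0.78 (permutation p = 0.0032, adjusted p = 0.083). S100b correlated with the fibroblast mean at 0.65 (permutation p = 0.00145, adjusted p = 0.083) and Nes with it at 0.78 (permutation p = 0.0101, adjusted p = 0.159). Cdh19 correlated with the glomus cell mean at 0.66 (permutation p = 0.00395, adjusted p = 0.083). The genes also followed other marker means. S100b gave 0.73 with the endothelial and 0.69 with the macrophage mean (adjusted p = 0.212 and 0.207). Nes gave 0.71 with the pericyte and smooth muscle mean and 0.58 with the endothelial mean (adjusted p = 0.207 and 0.21). Gpm6b gave 0.56 with the fibroblast mean, and Sox10 gave 0.76 with the macrophage mean (adjusted p = 0.207 for both). Of 63 such relations none passed after adjustment. The part of these cells in the covariation of S100b, Gpm6b and Nes was not tested.

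The genes whose deviations were most like each of the 9 were sought over the 16 arrays, among 6221 single-gene probes of above-median signal and spread (fewer by 1 where the gene itself was one). For S100b these were Plce1, Ccn1 and Igfbp7 (r = 0.92, 0.88 and 0.88). For Gpm6b they were Tm4sf1, Qki and Nedd9 (0.90, 0.87 and 0.87), and for Nes Gda, Plxdc2 and Bgn (0.91, 0.90 and 0.88). Cdh19 was nearest to Naa40, Hspa4l and Ttc8 (0.90, 0.87 and 0.86), and Sostdc1 to Rab3il1, Kank3 and Col14a1 (0.81, 0.78 and 0.77). Sox10 was nearest to Plau, Defa10 and Elf4 (0.81, 0.78 and 0.78), Fabp7 to Smim1, Ypel2 and Pcdhb9 (0.81, 0.79 and 0.78), and Gfap to Oxsm, Otud7b and Cflar (0.78, 0.77 and 0.77). Mbp had the weakest, Jcad, Slc39a13 and Rap2b (0.71, 0.70 and 0.68). The probes for Gfap, Sox10, Fabp7, Mbp and Nes were not among the candidates. All values share the array, its RNA amount and its scaling, and the highest of so many correlations over 16 arrays are large by selection.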

How the data were processed

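RNA of 16 samples, 4 groups of 4, was measured on an Affymetrix rat gene array. The deposited table holds the authors' log2 values, from 0.87 to 13.33. The scale was inferred from that range, and the submitters' processing notes name Transcriptome Analysis Console. The background correction, the normalization and the build of the array were not given in the sources used here. By the platform annotation, 18511 of the 30429 probes name 1 gene, 575 name several and 11343 name none, and genes with several probes are given by the one with the highest mean.

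One mean per group was fitted to all probes with limma 3.58.1 in R 4.3.3 (12 residual degrees of freedom). Two-sided p-values received a Benjamini-Hochberg adjustment across the whole table, and errors after ± are standard errors unless marked SD. Covariation used deviations from group means and 100000 permutations within groups (Python 3.11.15, numpy 2.4.6, scipy 1.17.1), and exact permutation within a condition. A marker sum is log2 of the summed linear values. Correlations with markers of other cells used the mean of the markers' log2 values instead. Scripts were tested on simulated data. Sequences come from RefSeq, GRCr8.

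The genes, the related lists and the tests were chosen with earlier results of these data known. Named are all 9 genes, up to 4 passing genes of each list per comparison with the smallest p, the 3 nearest genes, Th, Chga and B3gat1. Gpm6a, P2ry2, Panx1, the other-cell markers by name, and Ptprz1 and Apoe in the added comparison, were chosen after their values were seen. Some genes of the related lists and marker lists are not reported here. The 16 arrays limit precision. No pair of arrays held identical values.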

Additional observations from a re-analysis of the deposited data

Results flagged for a closer look

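In 36 sets of 4 arrays (9 genes in 4 groups), the highest or lowest array was compared with the others of its group, and 2 sets held an array that lay apart beyond Dixon's 95% critical value for the gap over the range. Chance flags about 1 set in 20. Nes in normoxic neuroblasts was highest in replicate 2, at 4.62 with the nearest array at 3.72 (0.874 of the range). S100b, Gpm6b and the summed fibroblast signal (11.72, against 7.91, 8.52 and 8.04) were also highest in that array within its group. Fabp7 in hypoxic neuroblasts was lowest in replicate 2, at 3.53 with the nearest array at 4.74 (0.84 of the range).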

How the results depend on the processing

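The rises of S100b in both populations, of Gfap in hypoxic neuroblasts, and the normoxic population differences of Gpm6b and Sostdc1 passed under every alternative run that tested them. The number of the 9 genes that passed between populations in hypoxia was 1, and became 3 after quantile normalization, 3 without the dimmer 50% of probes, 2 with the replicate number as a random block, 0 with only the arrays compared and 0 at an adjusted p of 0.01. Leaving out 1 array gave 1 to 3. For hypoxia in glomus cells it was 3, and became 1 after quantile normalization, 5 with array weights and 1 at an adjusted p of 0.01, and 1 to 4 without 1 array (1 without normoxic glomus cell replicate 3 or hypoxic glomus cell replicate 1). For hypoxia in neuroblasts it was 2, and ran from 1 to 3 over the alternative runs. It was 1 without the dimmer 50% of probes, which leaves out Gfap. Mbp also passed after centring (adjusted p = 0.015) and Sox10 after quantile normalization (adjusted p = 0.0346). Sox10 and Fabp7 each passed in 1 of 16 fits without 1 array. The number of correlated pairs was 1, and became 3 after centring, 0 after quantile normalization (S100b with Gpm6b at r = 0.80), 3 with Spearman's rho and 10 for values with the group means left in, which pools separate clusters. Without 1 array it was 0 to 4, and 0 without normoxic neuroblast replicate 2 or 3, hypoxic glomus cell replicate 3 or 4, or hypoxic neuroblast replicate 1 or 4. The interaction count was 0 in all. The causes were not tested, except where stated.

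Deviations of same-numbered replicates correlated weakly at most, with r from -0.105 to 0.205 and 8 of 24 over 0.1. Of 16 arrays, 6 were nearest to one of their own number. The labels do not say whether same-numbered samples came from one dispersion. With so few arrays per group, these correlations cannot decide whether the numbers pair samples. With the replicate block as fixed term, the counts were 2, 1, 3, 2 and 0 in the 5 comparisons, and S100b gave 1.93 for hypoxia in glomus cells.

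Signs turned for differences that had not passed. With array weights, Gfap between populations in normoxia was 0.05 and Nes in hypoxia 0.08. After centring and after quantile normalization, Gpm6b for hypoxia in glomus cells was -0.10 and -0.03 and Nes for hypoxia in neuroblasts -0.01 and -0.08. After centring, Sox10 for hypoxia in glomus cells was -0.01 and Sostdc1 for hypoxia in neuroblasts -0.03. After quantile normalization the mean population difference of Mbp was 0.08. Without 1 array, values ran across 0 for Gfap (-0.09 to 0.09) and Fabp7 (-0.35 to 0.09) between populations in normoxia, Nes (-0.20 to 0.10) and Fabp7 (-0.40 to 0.08) in hypoxia, Gpm6b for hypoxia in glomus cells (-0.15 to 0.39), the interactions of Fabp7 (-0.34 to 0.22) and Gpm6b (-0.07 to 0.53), and the mean population differences of Mbp (-0.08 to 0.04) and Nes (-0.02 to 0.17). Probes below the median signal, as for Gfap, Fabp7 and Nes, limit what can be measured.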
